A study of Mus musculus with 2 samples.

Results

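A set of 30 genes of cholesterol synthesis, uptake and efflux was followed in single-cell RNA libraries of mouse brain microglia, the resident macrophages of the brain. The genes were taken by symbol from the gene list of the libraries, which names 55450 genes, and all 30 were present. Of them 18 encode enzymes of synthesis, 5 regulate synthesis, 1 controls lipoprotein uptake, 2 are efflux transporters, 2 are sterol receptors and 2 serve esterification or transport. Adult male C57BL/6J mice received 100 mg/kg of sodium pentobarbital, a barbiturate anesthetic (anesthesia, 3 mice), or normal saline (awake, 3 mice). Cells were sorted as CD11b-positive and CD45-low, and RNA molecules were counted by unique molecular identifiers (UMIs) near their 3' ends. Each group was sequenced as 1 library, which leaves the comparison without a replicate and without a test. How the 3 mice entered each library is not given in the sources used here. "Higher" and "lower" describe the anesthesia library set against the awake library, and effects of group, library preparation and handling cannot be told apart.

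Cells make cholesterol from acetyl-CoA through mevalonate, the isoprenoids, squalene and lanosterol. When sterols are scarce in the endoplasmic reticulum, the escort protein Scap carries the transcription factors encoded by Srebf1 and Srebf2 to the Golgi, where they are cut and released to switch on synthesis genes. When sterols are plentiful, the Insig proteins hold Scap back, and oxysterols activate the liver X receptors encoded by Nr1h2 and Nr1h3. These receptors switch on the exporters Abca1 and Abcg1 and the ubiquitin ligase Mylip, which marks lipoprotein receptors for degradation. The brain makes its own cholesterol because the blood-brain barrier keeps lipoproteins out, and microglia take up myelin debris and hand its cholesterol on through efflux.

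Promoter windows from RefSeq (GRCm38.p6, 250 bases before to 50 after the transcription start) were found for 25 of the 30 genes. Fdft1, Stard4, Sqle, Fdps and Abcg1 had no window and were not searched. Windows of 6 members are shown, 5′ to 3′ on the gene's strand, because they belong to members that the results turn on. Insig1, Mylip and Abca1 had among the highest ratios of anesthesia over awake, and Ebp and Mvk among the lowest. Hmgcs1 held the only sterol regulatory element core found among the 25 genes. Capitals mark the searched letters: the sterol regulatory element core TCACNCCAC, the E-box CACGTG and the CCAAT box (CCAAT), each on either strand, so that a CCAAT box on the other strand reads ATTGG. No base of these windows belonged to 2 motifs.
Insig1, chr5:28071162-28071461, plus strand: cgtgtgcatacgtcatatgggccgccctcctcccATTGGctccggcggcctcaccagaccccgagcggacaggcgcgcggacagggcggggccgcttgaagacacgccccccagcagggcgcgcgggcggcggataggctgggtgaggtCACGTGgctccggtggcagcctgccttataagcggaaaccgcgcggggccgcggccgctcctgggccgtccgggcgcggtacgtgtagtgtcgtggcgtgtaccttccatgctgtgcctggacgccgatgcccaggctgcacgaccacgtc
Mylip, chr13:45389492-45389791, plus strand: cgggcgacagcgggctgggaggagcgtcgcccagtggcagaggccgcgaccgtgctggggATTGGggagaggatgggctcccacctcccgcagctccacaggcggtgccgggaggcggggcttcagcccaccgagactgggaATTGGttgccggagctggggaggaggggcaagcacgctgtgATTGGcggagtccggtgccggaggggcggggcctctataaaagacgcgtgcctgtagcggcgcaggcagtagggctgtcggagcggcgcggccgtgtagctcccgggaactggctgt
Abca1, chr4:53159846-53160145, minus strand: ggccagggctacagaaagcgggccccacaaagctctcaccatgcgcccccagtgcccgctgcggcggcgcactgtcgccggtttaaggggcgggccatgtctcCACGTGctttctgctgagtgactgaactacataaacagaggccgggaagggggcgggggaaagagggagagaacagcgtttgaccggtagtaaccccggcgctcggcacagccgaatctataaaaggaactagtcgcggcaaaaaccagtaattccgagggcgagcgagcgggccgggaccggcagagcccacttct
Ebp, chrX:8193463-8193762, minus strand: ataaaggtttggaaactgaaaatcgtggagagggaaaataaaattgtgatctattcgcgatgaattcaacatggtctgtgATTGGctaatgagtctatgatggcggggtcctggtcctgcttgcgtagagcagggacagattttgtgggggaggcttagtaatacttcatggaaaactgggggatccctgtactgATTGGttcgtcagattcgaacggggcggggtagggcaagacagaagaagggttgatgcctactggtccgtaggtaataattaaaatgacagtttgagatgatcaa
Mvk, chr5:114444019-114444318, plus strand: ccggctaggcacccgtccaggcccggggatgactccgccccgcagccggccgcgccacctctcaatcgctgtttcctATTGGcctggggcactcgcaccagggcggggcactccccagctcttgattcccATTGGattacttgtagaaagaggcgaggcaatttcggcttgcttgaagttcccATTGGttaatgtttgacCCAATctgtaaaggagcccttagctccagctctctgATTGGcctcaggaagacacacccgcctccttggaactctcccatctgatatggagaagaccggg
Hmgcs1, chr13:119690101-119690400, plus strand: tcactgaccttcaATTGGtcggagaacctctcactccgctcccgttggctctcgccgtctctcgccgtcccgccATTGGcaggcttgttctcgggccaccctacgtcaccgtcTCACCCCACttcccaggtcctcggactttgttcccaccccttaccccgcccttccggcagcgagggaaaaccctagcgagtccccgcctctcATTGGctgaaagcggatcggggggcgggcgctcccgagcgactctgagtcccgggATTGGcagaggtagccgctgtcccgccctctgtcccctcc

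The sterol regulatory element core is the sequence through which the Srebf proteins are known to act. Its only match among the 25 members with a window began 137 bases before the start of Hmgcs1 (position -137). Of the 27025 genes with a window, 1.44% held one. The E-box was found in 6 members, Hsd17b7, Sc5d, Dhcr7, Scap, Insig1 and Abca1, and in 8.09% of all genes. The CCAAT box, bound by the factor NF-Y, was found in 20 of 25 members, in 14 of 15 synthesis members and in 41.1% of all genes. Members with a CCAAT box lay on both sides of the comparison, with Insig1 and Mylip higher and Ebp and Mvk lower in the anesthesia library. The direct repeat bound by the liver X receptor, searched as exact consensus letters without variants, was found in 0 of 25 members and in 0.0148% of all genes. With exact matches so rare among all genes, that 0 cannot show whether members carry variants of the repeat. A match is a description of letters in this window and not a site. A missing match does not show that a gene lacks a site.

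The anesthesia library held 61139016 UMIs in 9412 barcodes and the awake library 53262885 UMIs in 8600 barcodes, and 14 barcode sequences occurred in both. After filtering, 8446 of 8944 anesthesia cells (94.4%) and 7466 of 8223 awake cells (90.8%) lay in microglia-like clusters. All 10 microglial markers were seen in both libraries, and their summed level was 21028 UMIs per 1000000 UMIs (CPM) in anesthesia and 23304 CPM in awake cells. The microglia-like cells had a median of 5433 UMIs and 2.14% mitochondrial UMIs in the anesthesia library, against 5953.5 UMIs and 1.33% in the awake library. Within the microglia-like cells, astrocyte markers summed to 23.2 CPM in the anesthesia and 17.8 CPM in the awake library. Endothelial markers summed to 47.9 CPM in anesthesia and 55.6 CPM in awake cells, choroid plexus markers to 63.4 CPM in anesthesia and 44.9 CPM in awake cells, and red cell markers to 91.9 CPM in anesthesia and 47.7 CPM in awake cells. Markers of 16 classes other than microglia were checked in this way, and their part in the differences below was not tested.

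Levels were compared as CPM summed over the microglia-like cells, with intervals at 95% that cover counting error only. A gene counted as measured with at least 200 UMIs over both libraries, which 28 of the 30 members reached. Sqle, which oxidises squalene, had 63 UMIs in anesthesia and 78 in awake cells, and Nr1h3, the liver X receptor alpha, had 21 UMIs in anesthesia and 36 in awake cells. Both stayed below that minimum, and no ratio is drawn from them. Of the 28 measured members, 5 were at least 1.5-fold higher in the anesthesia library, where 13.3% of the 11403 measured genes were, and 5 were at least 1.5-fold lower, where 11.8% of measured genes were. Both counts stand close to that background, and the median log2 ratio of the members was 0.14, with -0.016 over all measured genes. The 5 higher members were Mylip, Insig1, Abca1, Abcg1 and Stard4, and the 5 lower members were the enzymes Fdps, Ebp, Mvk, Mvd and Fdft1. By sign alone the roles did not divide. Of the 17 measured synthesis enzymes 8 had a ratio above 0, with a median of -0.027. Of the 11 other measured members 3 had one below 0, with a median of 0.34. At 1.5-fold, 0 of the 17 synthesis enzymes were higher and 5 lower, while 5 of the 11 other members were higher and 0 lower. The shares over all measured genes were 13.3% higher and 11.8% lower. Stard4, Mvd and Fdft1 fell short of 1.5-fold when the ratio was pooled within clusters, and the enzymes Acat2 and Idi1 then passed it on the higher side, at 0.61 and 0.60. That depended on the clustering. At a resolution of 0.3 Idi1 came to 0.55, short of 1.5-fold, and Acat2 to 0.64. At 1.0 Acat2 came to 0.49, short of it, and Idi1 to 0.62.

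**Figure D1:**
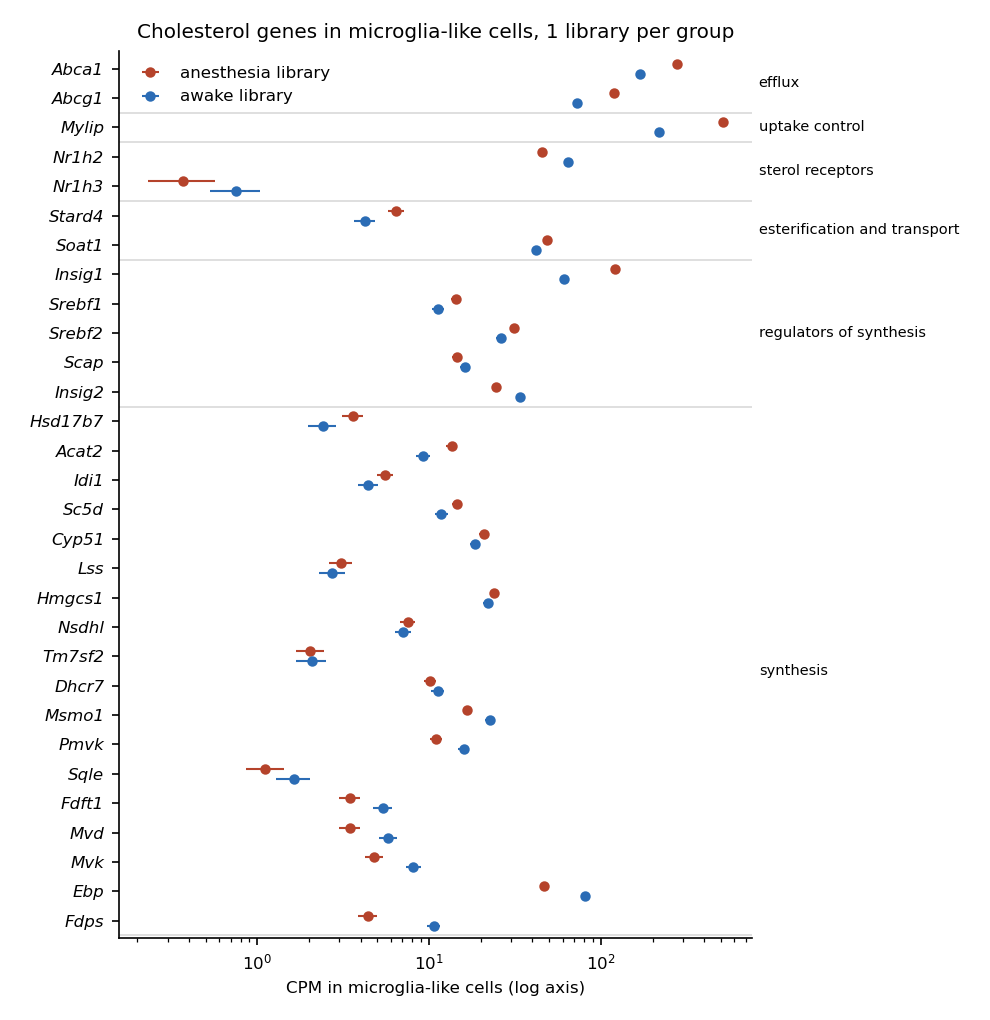
Level of each of the 30 genes in microglia-like cells, as CPM on a log axis, in the anesthesia library (red) and the awake library (blue), with exact 95% counting intervals, grouped by role. Mylip, Abca1, Abcg1 and Insig1 lie further right in the anesthesia library, and Fdps, Ebp, Mvk and Mvd lie further right in the awake library.

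The export genes were both higher in the anesthesia library. Abca1, which moves cholesterol and phospholipid onto lipid-poor apolipoproteins, had 15811 UMIs and 279 CPM in anesthesia cells, against 8139 UMIs and 170 CPM in awake cells. That is 1.64-fold higher, a log2 ratio of 0.72 (0.68 to 0.75), and 9.23% of measured genes had a larger ratio. Abcg1, which passes cholesterol to mature lipoprotein particles, had 6750 UMIs and 119 CPM in anesthesia cells, against 3489 UMIs and 72.9 CPM in awake cells. Its log2 ratio was 0.71 (0.65 to 0.77), close to that of Abca1. Together the 2 transporters had 399 CPM in anesthesia and 243 CPM in awake cells, a log2 ratio of 0.71 (0.68 to 0.75).

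Uptake was represented by Mylip, the ligase that removes lipoprotein receptors from the surface. Mylip had 29033 UMIs and 513 CPM in anesthesia cells, against 10494 UMIs and 219 CPM in awake cells. It was 2.34-fold higher, with a log2 ratio of 1.23 (1.19 to 1.26), the largest among the measured members, and 2.22% of measured genes had a larger one. Of the receptors known to act upstream of these 3 genes, the measured one was lower. Nr1h2, the liver X receptor beta, had 2585 UMIs and 45.7 CPM in anesthesia cells, against 3062 UMIs and 64.0 CPM in awake cells, a log2 ratio of -0.49 (-0.56 to -0.41). A pseudogene of Nr1h2 is annotated, so reads of the pair may have been divided between them.

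Among the regulators of synthesis, Insig1 stood apart from Insig2. Insig1, which retains Scap and is itself a known target of the Srebf factors, had 6842 UMIs and 121 CPM in anesthesia cells, against 2907 UMIs and 60.8 CPM in awake cells. It was 1.99-fold higher, with a log2 ratio of 0.99 (0.93 to 1.06). Insig2, its relative, which also retains Scap, was lower, with 24.7 CPM in anesthesia and 33.8 CPM in awake cells and a log2 ratio of -0.46 (-0.56 to -0.35). Srebf2, the factor that mainly drives cholesterol genes, had 31.1 CPM in anesthesia and 26.1 CPM in awake cells, a log2 ratio of 0.25 (0.15 to 0.36). Srebf1, which mainly drives fatty acid genes, had 14.3 CPM in anesthesia and 11.3 CPM in awake cells, a log2 ratio of 0.34 (0.19 to 0.50). For Scap, 14.5 CPM in anesthesia and 16.2 CPM in awake cells gave a log2 ratio of -0.16 (-0.31 to -0.020). Of these 5 genes, Insig1 alone passed 1.5-fold.

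The 18 synthesis enzymes were not all on one side. Their summed level was 196 CPM in anesthesia cells (11110 UMIs), against 242 CPM in awake cells (11584 UMIs), a log2 ratio of -0.30 (-0.34 to -0.27). Much of that difference lay in 1 gene, since without Ebp the sum was 150 CPM in anesthesia and 161 CPM in awake cells, a log2 ratio of -0.11 (-0.15 to -0.066). The ratios of the 17 measured enzymes ran from -1.28 to 0.58.

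Before squalene, 7 of the members act between acetyl-CoA and farnesyl diphosphate. Fdps, which makes farnesyl diphosphate, had 249 UMIs and 4.40 CPM in anesthesia cells, against 511 UMIs and 10.7 CPM in awake cells. This was the lowest ratio of the members, a log2 value of -1.28 (-1.50 to -1.06) or 2.43-fold lower, and 0.895% of measured genes had a lower one. The exons of Fdps overlap those of the annotated Gm43738 on the same strand, so its counts are uncertain. Mvk, which phosphorylates mevalonate, had 271 UMIs and 4.79 CPM in anesthesia cells, against 387 UMIs and 8.09 CPM in awake cells, a log2 ratio of -0.76 (-0.99 to -0.53). Mvd, which removes the carboxyl group of mevalonate diphosphate, had 196 UMIs in anesthesia and 277 UMIs in awake cells, a log2 ratio of -0.74 (-1.01 to -0.47). The kinase between them in the pathway, Pmvk, stood just inside 1.5-fold, with 11.0 CPM in anesthesia and 15.9 CPM in awake cells and a log2 ratio of -0.53 (-0.69 to -0.38). Other steps of the same stretch lay on the other side. Acat2, the thiolase that joins acetyl-CoA units, had 13.5 CPM in anesthesia and 9.26 CPM in awake cells, a log2 ratio of 0.55 (0.37 to 0.72). Idi1, which isomerises isopentenyl diphosphate, had 5.55 CPM in anesthesia and 4.43 CPM in awake cells, a log2 ratio of 0.32 (0.068 to 0.58). For Hmgcs1, which makes HMG-CoA and whose window carried the sterol regulatory element core shown above, 23.9 CPM in anesthesia and 22.0 CPM in awake cells gave a log2 ratio of 0.12 (0.00068 to 0.24). Pooled within clusters the ratio of Hmgcs1 turned to -0.058, and to -0.012 at a clustering resolution of 0.3. As a sum, the 7 enzymes had 66.6 CPM in anesthesia and 76.1 CPM in awake cells, a log2 ratio of -0.19 (-0.26 to -0.13).

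From squalene to lanosterol the levels were low in both libraries. Fdft1, squalene synthase, had 196 UMIs and 3.46 CPM in anesthesia cells, against 257 UMIs and 5.37 CPM in awake cells, a log2 ratio of -0.63 (-0.91 to -0.36). An exon of Ctsb overlaps Fdft1 on the other strand, and the strand setting of the counting is not given in the sources used here. Likewise limited are Hmgcs1, Idi1, Lss, Cyp51, Srebf1 and Scap, whose exons overlap another gene on the other strand. Exons of Srebf1 also overlap the annotated Mir6922 on the same strand. Lss, which closes the sterol rings, had 3.06 CPM in anesthesia and 2.74 CPM in awake cells, and the interval of its log2 ratio of 0.16 spanned 0 (-0.18 to 0.50).

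After lanosterol, 8 of the members trim and rearrange the sterol. Ebp, the sterol isomerase, had 2641 UMIs and 46.7 CPM in anesthesia cells, against 3859 UMIs and 80.7 CPM in awake cells, a log2 ratio of -0.79 (-0.86 to -0.72). It was 1.73-fold lower, and 5.76% of measured genes had a lower ratio. Msmo1, a methyl sterol oxidase, was lower by less, with 16.7 CPM in anesthesia and 22.6 CPM in awake cells and a log2 ratio of -0.43 (-0.56 to -0.31). Hsd17b7, a keto-reductase, stood just inside 1.5-fold on the other side, with 204 UMIs in anesthesia and 115 UMIs in awake cells and a log2 ratio of 0.58 (0.25 to 0.93). Sc5d, the lathosterol desaturase, had 14.6 CPM in anesthesia and 11.8 CPM in awake cells, a log2 ratio of 0.31 (0.15 to 0.46). Cyp51, the lanosterol demethylase, had 20.8 CPM in anesthesia and 18.5 CPM in awake cells, a log2 ratio of 0.17 (0.044 to 0.30). Its direction turned within clusters, to -0.15, and to -0.24 and -0.14 at resolutions of 0.3 and 1.0. The intervals of Nsdhl, Tm7sf2 and Dhcr7, which carry out decarboxylation and the reduction of ring double bonds, spanned 0, at log2 ratios of 0.088, -0.027 and -0.14. Exons of Tm7sf2 overlap those of Vps51 on the same strand, so its counts are uncertain too. The whole stretch had 122 CPM in anesthesia and 156 CPM in awake cells, a log2 ratio of -0.36 (-0.40 to -0.31). Without Ebp it had 75.4 CPM in anesthesia and 75.6 CPM in awake cells, a log2 ratio of -0.0034 (-0.068 to 0.061).

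Stard4, which carries cholesterol between membranes inside the cell, had 364 UMIs and 6.43 CPM in anesthesia cells, against 202 UMIs and 4.22 CPM in awake cells. Its log2 ratio of 0.61 (0.35 to 0.86) lay just past 1.5-fold. Soat1, which esterifies cholesterol for storage in lipid droplets, had 48.8 CPM in anesthesia and 41.8 CPM in awake cells, a log2 ratio of 0.22 (0.14 to 0.31).

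**Figure D2:**
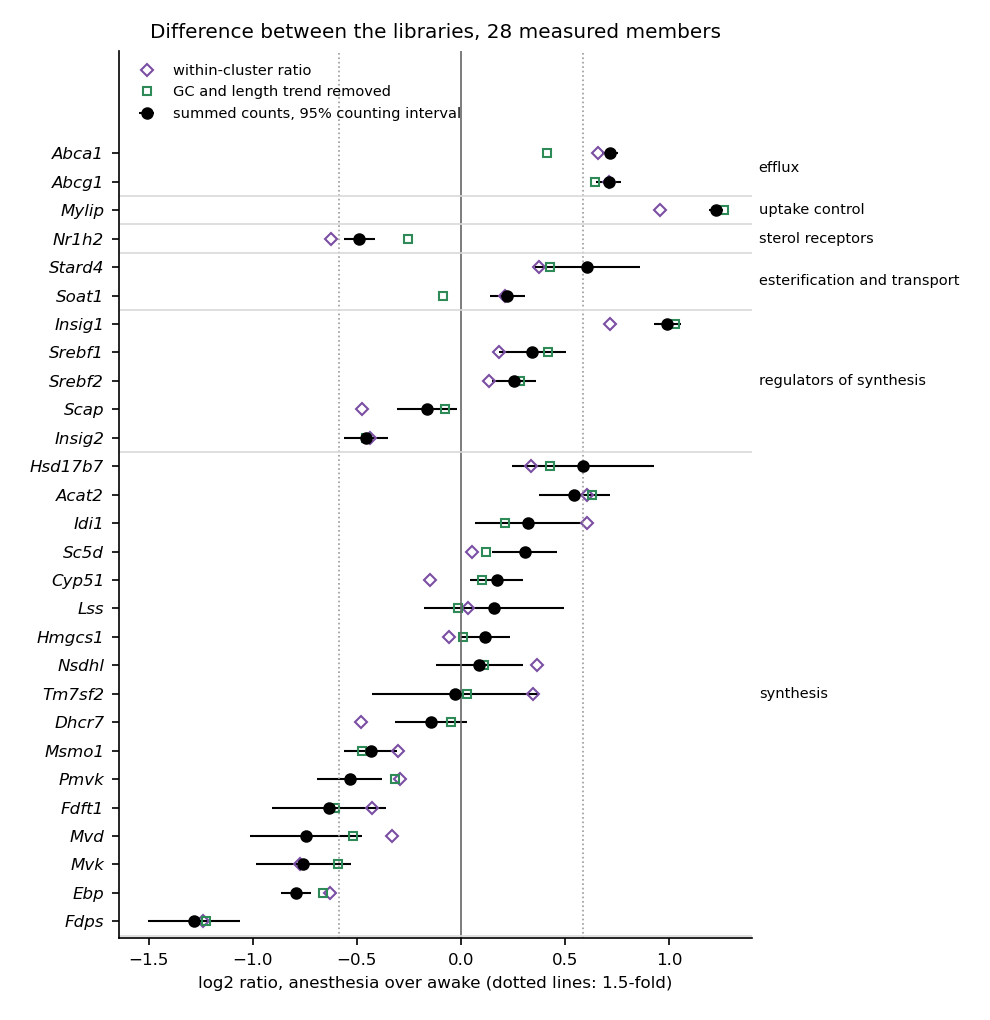
Log2 ratio of anesthesia over awake for the 28 measured genes in microglia-like cells, by role: black points are summed counts with 95% counting intervals, purple diamonds the ratio pooled within clusters, green squares the ratio after removing the trend with GC content and transcript length, and dotted lines 1.5-fold. Mylip (1.23) and Insig1 (0.99) lie furthest right and Fdps (-1.28) furthest left, and the synthesis enzymes spread over both sides of 0.

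The differences in the efflux and uptake genes were spread over many cells. Each microglia-like cell was thinned to 2000 UMIs, which left 8140 anesthesia and 7280 awake cells and dropped 306 anesthesia and 186 awake cells. A Mylip UMI was then seen in 60.6% (59.6 to 61.7) of anesthesia cells and 34.5% (33.4 to 35.6) of awake cells. Without thinning the shares were 86.9% in anesthesia and 67.8% in awake cells. For Abca1 the thinned shares were 40.4% in anesthesia and 27.2% in awake cells, for Insig1 20.3% in anesthesia and 11.0% in awake cells, and for Abcg1 19.6% in anesthesia and 12.7% in awake cells. Ebp was seen in 9.08% of anesthesia and 15.03% of awake cells, and Fdps in 0.823% of anesthesia and 2.24% of awake cells. In endothelial-like cells, thinned likewise, Mylip was seen in 27.7% of 112 anesthesia and 11.3% of 106 awake cells, and Abca1 in 15.2% of anesthesia and 13.2% of awake cells. Insig1 was seen there in 13.4% of anesthesia and 7.55% of awake cells, and Ebp in 8.93% of anesthesia and 12.3% of awake cells. The endothelial-like cells had median depths of 4535 UMIs in anesthesia and 5507 UMIs in awake cells before thinning. They are not known to lack these genes, so their shares are no pure measure of free RNA. Thinned anesthesia cells held a mean of 0.393 synthesis UMIs and 0.786 efflux UMIs, and thinned awake cells a mean of 0.487 synthesis UMIs and 0.476 efflux UMIs. No efflux UMI was found in 48.6% of anesthesia and 64.0% of awake cells, and no synthesis UMI in 68.4% of anesthesia and 62.0% of awake cells.

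The 2 libraries occupied different microglia-like clusters, although the members and the related lists below were kept out of the clustering. Clusters 1, 3 and 4 held 7909 of the 8446 anesthesia cells, and clusters 0 and 2 held 6755 of the 7466 awake cells. Ratios were therefore also taken inside each of the 7 clusters. In clusters 0 to 4 they rest on few cells of the minority library, from 65 awake cells in cluster 1 to 197 awake cells in cluster 3. The same clusters held 3811 and 2475 anesthesia cells. The intervals of Mylip, Abca1 and Insig1 lay above 0 in 7 of 7 clusters, with log2 ratios from 0.70 to 1.16 for Mylip, from 0.46 to 0.95 for Abca1 and from 0.47 to 0.96 for Insig1. Ebp lay below 0 in 5 of 7 clusters and Nr1h2 in 4 of 7. Fdps had 20 UMIs or more in 6 clusters, its log2 ratio ranged from -2.11 to -0.65, and the interval excluded 0 in 2 of them. The summed efflux ratio ran from 0.27 to 0.82, with an interval above 0 in every cluster. The summed synthesis ratio ran from -0.56 to -0.058. Its interval lay below 0 in clusters 0, 2 and 6 and spanned 0 in clusters 1, 3, 4 and 8.

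**Figure D3:**
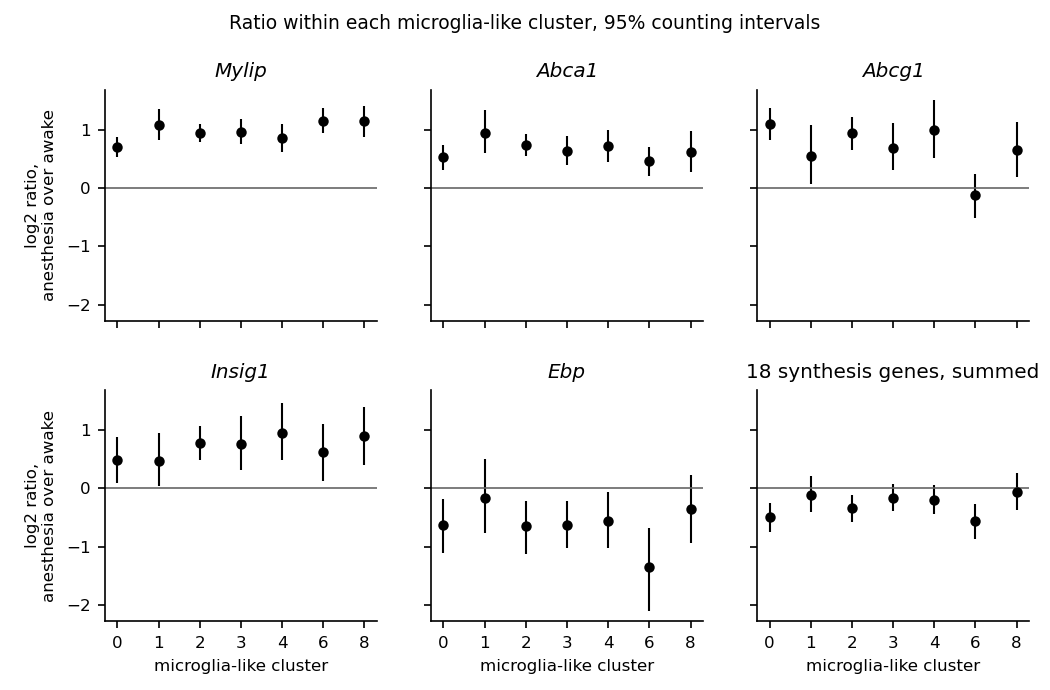
Log2 ratio of anesthesia over awake inside each of the 7 microglia-like clusters for Mylip, Abca1, Abcg1, Insig1, Ebp and the 18 synthesis genes summed, with 95% counting intervals. Mylip, Abca1 and Insig1 stay above 0 in all 7 clusters, and Abcg1 falls to -0.13 in cluster 6.

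Pooled within clusters, the log2 ratio was 0.96 for Mylip, 0.72 for Insig1, 0.66 for Abca1, 0.71 for Abcg1, -0.63 for Ebp and -1.24 for Fdps. Stard4 (0.38), Mvd (-0.33) and Fdft1 (-0.43) fell short of 1.5-fold in the same calculation, and Nr1h2 passed it at -0.62. At a clustering resolution of 0.3 Ebp came to -0.55, also short of 1.5-fold, and at a resolution of 1.0 to -0.65. Nr1h2 came to -0.52 and -0.48 at these 2 resolutions, short of 1.5-fold at both. The direction of Fdft1 was not stable, at -0.39 and 0.041 for the same 2 resolutions. Signs also turned within clusters for Hmgcs1, Cyp51 and Tm7sf2, and at a resolution of 0.3 for Lss (-0.22), Nsdhl (-0.090) and Hsd17b7 (-0.017).

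Cluster 6, led by Clec7a, Lgals3, Spp1, Lpl, Cst7 and Itgax, genes known from microglia that respond to damage or degeneration, had its own values for several members. It held 58 anesthesia and 237 awake cells. Its efflux sum was 473 CPM in anesthesia and 393 CPM in awake cells, a log2 ratio of 0.27 (0.058 to 0.47). Abcg1 there had 136 CPM in anesthesia and 149 CPM in awake cells, a log2 ratio of -0.13 (-0.51 to 0.24), whereas its intervals lay above 0 in the other 6 clusters. The awake cells of cluster 6 also had more synthesis RNA, 304 CPM, than the awake cells of any other microglia-like cluster (206 to 255 CPM). In its anesthesia cells the synthesis sum was 205 CPM, within the range of the other clusters (178 to 221 CPM). Over both libraries Dhcr7, the last reductase of the pathway, reached 25.3 CPM (19.5 to 32.3) in cluster 6 and 8.92 to 15.6 CPM elsewhere. Sqle reached 6.23 CPM (3.56 to 10.1) in cluster 6, all from 16 UMIs in awake cells, and 0.722 to 1.39 CPM elsewhere.

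The main differences had the same sign in cells of different depth. Microglia-like cells were divided into 5 bins of UMIs per cell, from 1000 to 3000 UMIs up to over 10000 UMIs. The log2 ratio of the efflux sum was 0.52 in the lowest bin and 0.68 in the highest, with 0.63 to 0.75 between. For Mylip the bins ranged from 1.08 to 1.31, and for Ebp from -0.94 to -0.61. Insig1 had a log2 ratio of 0.32 (-0.11 to 0.76) in the lowest bin, where it had 141 UMIs in anesthesia and 68 UMIs in awake cells, and of 0.88 to 1.18 in the other 4. The synthesis sum ranged from -0.36 to -0.24.

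The ratio between the libraries also went with base composition and transcript length. Over all 11403 measured genes, Spearman's rho between GC content of the transcript and the log2 ratio was -0.26, and that between length and ratio was 0.26. These are correlations across genes of the same 2 libraries, and genes are not independent replicates. The median log2 ratio was 0.16 for genes under 45% GC and -0.20 for genes of 55% GC or more. Among the 17 measured synthesis members the rho with GC content was -0.69 and that with length 0.54. Mvk, Pmvk and Mvd, with 56.3%, 56.95% and 59.0% GC, were on the lower side, and Idi1, Sc5d and Hsd17b7, with 41.9%, 42.9% and 43.9% GC, were on the higher side. The trend of all genes with GC content and length was then removed. Mylip stood at 1.26 after that, Insig1 at 1.03, Abcg1 at 0.64, Fdps at -1.22 and Ebp at -0.66. The log2 ratio of Abca1 came to 0.41, of Stard4 to 0.43 and of Mvd to -0.52, short of 1.5-fold, and that of Soat1 to -0.087. The longest transcripts of Abca1 and Soat1 have 10262 and 8371 bases. Acat2 came to 0.63, past 1.5-fold on the higher side. For Nr1h2, with 60.6% GC, it came to -0.25, from -0.49 before removal. The part of base composition and length in these differences was not tested.

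**Figure D4:**
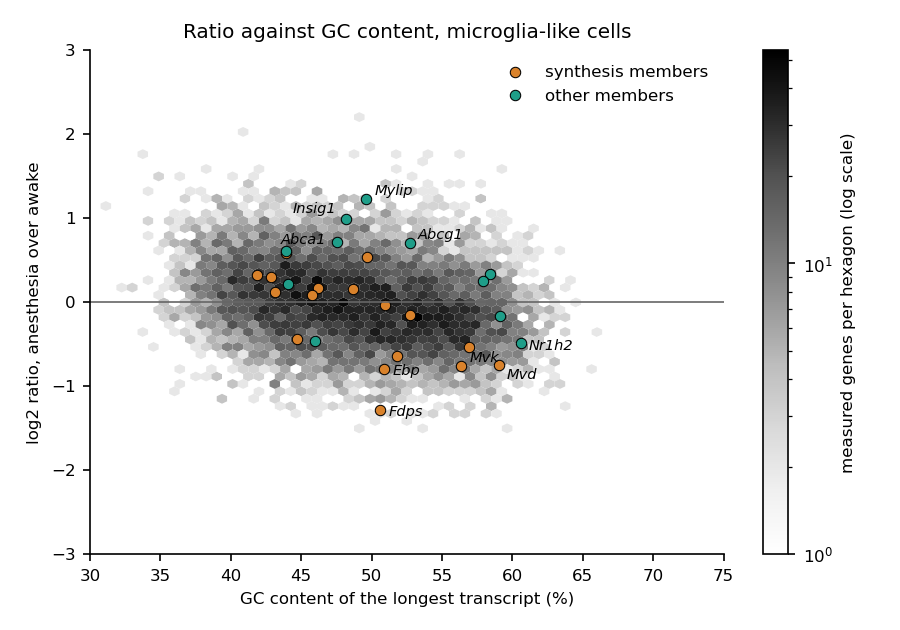
Log2 ratio of anesthesia over awake against the GC content of the longest transcript for all 11403 measured genes (grey hexagons, darker for more genes), with the measured synthesis genes in orange and the other measured members in green. The cloud slopes down to the right, synthesis members of high GC such as Mvk and Mvd lie low, and Mylip, Insig1 and Fdps lie towards the edges of the cloud at middle GC.

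The 3 other named cell classes with values held at least 20 cells per library and were read as small by-catch of the sort. There were 37 anesthesia and 48 awake border-associated macrophage-like cells, 123 anesthesia and 113 awake endothelial-like cells, and 84 anesthesia and 41 awake choroid plexus or ependymal-like cells. RNA of microglial genes was present in all of them: P2ry12, a microglial receptor, stood at 38.7% of its microglial level in anesthesia and 15.9% in awake endothelial-like cells. It stood at 45.8% in anesthesia and 31.2% in awake choroid plexus or ependymal-like cells, and at 87.7% in anesthesia and 56.4% in awake border-associated macrophage-like cells. The part of that RNA in the values of these classes was not tested.

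The synthesis genes stood higher in these classes than in microglia-like cells of the same library. Choroid plexus or ependymal-like cells had 416 CPM in anesthesia and 485 CPM in awake cells, which is a log2 ratio to microglia-like cells of 1.08 (0.90 to 1.27) in anesthesia and 1.002 (0.76 to 1.23) in awake cells. Sqle, at 1.11 CPM in anesthesia and 1.63 CPM in awake microglia-like cells, had 30.1 CPM in anesthesia and 40.4 CPM in awake cells there, from 18 anesthesia and 13 awake UMIs. Endothelial-like cells had 240 CPM in anesthesia and 427 CPM in awake cells, and border-associated macrophage-like cells 296 CPM in anesthesia and 379 CPM in awake cells. The efflux sum went the other way, at 197 CPM in anesthesia and 112 CPM in awake choroid plexus or ependymal-like cells and at 214 CPM in anesthesia and 130 CPM in awake endothelial-like cells, below microglia-like cells. In border-associated macrophage-like cells it was 390 CPM in anesthesia and 304 CPM in awake cells, and the log2 ratio to microglia-like cells was -0.033 (-0.22 to 0.15) in anesthesia and 0.32 (0.056 to 0.58) in awake cells.

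Between the libraries, summed over all cells of a class, each class had the same signs as the microglia-like cells. The efflux ratio was 0.72 (0.34 to 1.10) in endothelial-like cells, 0.82 (0.27 to 1.40) in choroid plexus or ependymal-like cells and 0.36 (0.044 to 0.68) in border-associated macrophage-like cells, on the log2 scale. For synthesis it was -0.83 (-1.10 to -0.57), -0.22 (-0.52 to 0.077) and -0.36 (-0.67 to -0.043) in the same classes. In cells of at most 10000 UMIs the synthesis ratio of choroid plexus or ependymal-like cells was 0.33, that of border-associated macrophage-like cells -0.86, and the efflux ratio of endothelial-like cells 0.29. Mylip was higher in the anesthesia cells of each class. It had 270 CPM in anesthesia and 89.9 CPM in awake endothelial-like cells, 214 CPM in anesthesia and 87.05 CPM in awake choroid plexus or ependymal-like cells, and 477 CPM in anesthesia and 168 CPM in awake border-associated macrophage-like cells. Endothelial-like P2ry12 differed in the same direction, with 659 CPM in anesthesia and 287 CPM in awake cells. Against the microglial direction, Stard4 in endothelial-like cells had 22 UMIs and 26.4 CPM in anesthesia cells, against 50 UMIs and 71.4 CPM in awake cells. The anesthesia border-associated macrophage-like cells were deeper, with a median of 13237 UMIs against 7196.5 UMIs in awake cells.

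**Figure D5:**
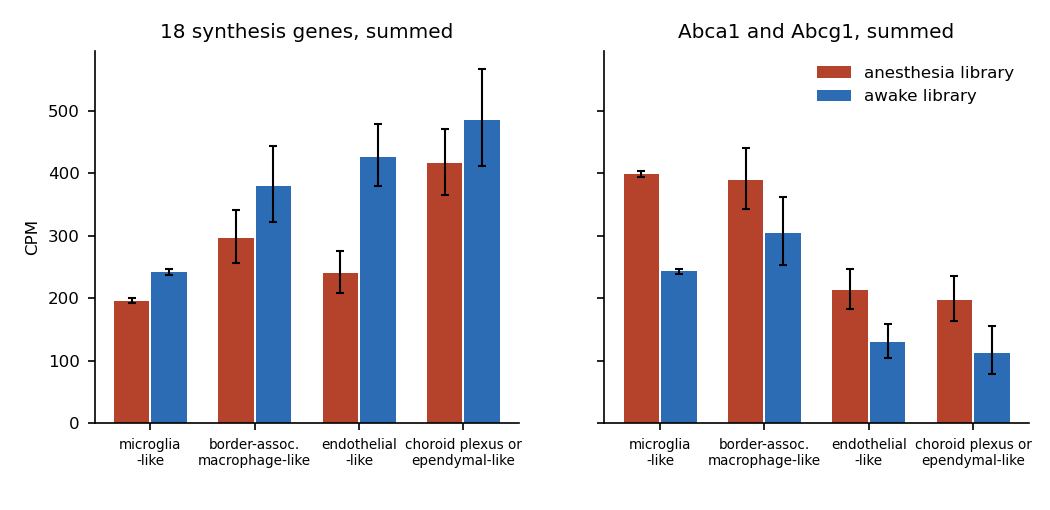
Summed level of the 18 synthesis genes (left) and of Abca1 with Abcg1 (right), in CPM, in 4 cell classes of the anesthesia (red) and awake (blue) libraries, with exact 95% counting intervals. Within each library synthesis is lowest in microglia-like cells (196 CPM in anesthesia, 242 CPM in awake), and efflux is lower in endothelial-like and choroid plexus or ependymal-like cells than in microglia-like cells.

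Neighbouring pathways were read from lists of other genes, with the same background of 13.3% higher and 11.8% lower. Of 14 fatty acid synthesis genes driven by Srebf1, 10 were measured, 4 were at least 1.5-fold higher, 0 lower, and their median log2 ratio was 0.38. Acsl3, which activates long-chain fatty acids, had 12.9 CPM in anesthesia and 4.81 CPM in awake cells, a log2 ratio of 1.42 (1.20 to 1.64). Fasn, fatty acid synthase, had 19.7 CPM in anesthesia and 8.30 CPM in awake cells, a log2 ratio of 1.24 (1.08 to 1.41). For Scd2, a stearoyl-CoA desaturase, 48.6 CPM in anesthesia and 26.6 CPM in awake cells gave 0.87 (0.77 to 0.97). Acaca, acetyl-CoA carboxylase, stood at 0.60 (0.34 to 0.86), and at -0.016 when pooled within clusters.

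All 10 genes of the isoprenoid branch, which draws on the product of Fdps, were measured, with 1 higher, 1 lower and a median of 0.12. Pdss1, which builds the side chain of ubiquinone, had 7.84 CPM in anesthesia and 3.51 CPM in awake cells, a log2 ratio of 1.16 (0.90 to 1.42). Fnta, the shared subunit of the prenyl transferases, had 39.4 CPM in anesthesia and 65.8 CPM in awake cells, a log2 ratio of -0.74 (-0.82 to -0.66). Coq2, a prenyltransferase of ubiquinone synthesis, stood at -0.52. Of 10 genes for Srebf cleavage and sterol-regulated degradation, 1 was higher and 1 lower, with a median of 0.038. Mbtps2, the site-2 protease that frees the Srebf factors, stood at 0.63 (0.50 to 0.76), the ubiquitin ligases Syvn1 and Rnf139 at -0.78 and 0.17, and Erlin1 at -0.50.

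Of 13 endolysosomal and contact-site transport genes 12 were measured, with 2 higher, 1 lower and a median of 0.15. Gramd1b, which moves plasma membrane cholesterol to the endoplasmic reticulum, had 13.5 CPM in anesthesia and 5.77 CPM in awake cells, a log2 ratio of 1.23 (1.03 to 1.43). Stard3, a sterol carrier of late endosomes, had 101.2 CPM in anesthesia and 173 CPM in awake cells, a log2 ratio of -0.77 (-0.82 to -0.72). Osbpl8 stood at 0.66 and Npc1, the lysosomal cholesterol exporter, at 0.50. Among 12 genes of oxysterol enzymes and ester turnover 7 were measured, with 1 higher, 1 lower and a median of -0.12. Plin2, a lipid droplet coat protein, had 21.7 CPM in anesthesia and 36.1 CPM in awake cells, a log2 ratio of -0.74 (-0.84 to -0.63). Scarb1, a lipoprotein receptor, had 28.2 CPM in anesthesia and 18.3 CPM in awake cells, a log2 ratio of 0.63 (0.51 to 0.75). Nceh1, an ester hydrolase, stood at 0.32 and the oxysterol enzyme Cyp27a1 at -0.23.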

How the data were processed

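The authors deposited whole-number UMI counts per gene and barcode for 2 libraries, per the file headers, with no normalization. The submitters' processing notes name bcl2fastq, Cell Ranger 3.1.0 and GRCm38, while the file headers name Cell Ranger 4.0.0, and the difference was not settled. Cells were kept with at least 500 genes, 1000 UMIs and at most 10% mitochondrial UMIs. They were clustered with scanpy 1.11.5 and leidenalg 0.10.2 (2000 variable genes, 30 principal components, 15 neighbours, resolution 0.6). Variable genes excluded the members, the related lists, and immediate early, cytokine, heat shock, mitochondrial, ribosomal and hemoglobin genes. Names of clusters came from 10 markers for each of 17 cell classes. Mixed clusters without a name were divided once more at resolution 0.5, a step added after seeing the data, and neutrophil-like and platelet-like cells were under 20 in a library and got no value. Scrublet called 1 anesthesia and 0 awake cells as doublets, so it did not work here and removed no cell. The 17 marker lists included blood, vascular, glial and neuronal cells.

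Counts were summed per library and class and scaled to UMIs per 1000000 (CPM). Ratios have exact conditional binomial (Clopper-Pearson) 95% intervals, CPM exact Poisson intervals and shares Clopper-Pearson intervals. All cover counting error only. The within-cluster ratio pools clusters with Mantel-Haenszel weights. The within-cluster ratio at other resolutions, depth bins, sums by pathway stage and the sum without Fdps were added after seeing the data. GC content and length are those of the longest GENCODE transcript on GRCm38, and all 55450 gene identifiers matched. TMM factors came from edgeR 4.0.16. The ratio intervals were run on simulated Poisson counts. Such counts hold no variation between cells, libraries or mice, so the run does not test the comparison of groups. All 30 members are named, and from each related list up to 4 measured genes with the largest absolute log2 ratio, of which 1 is not reported here. The members and lists were chosen with earlier results of these data known. Cluster names were rebuilt here and are not the authors'.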

Additional observations from a re-analysis of the deposited data

Results flagged for a closer look

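In endothelial-like cells Stard4 stood on the other side from microglia-like cells. Its log2 ratio of anesthesia over awake was -1.44 (-2.23 to -0.69) in endothelial-like cells, from 22 UMIs in anesthesia and 50 UMIs in awake cells, and 0.61 (0.35 to 0.86) in microglia-like cells. The gene was singled out because the 2 cell types lay on opposite sides of 0 with intervals that excluded 0. The microglial direction did not hold in every cluster. In the 5 microglia-like clusters with at least 20 UMIs of Stard4 its log2 ratio ran from -0.80 to 1.54. The interval lay above 0 in 0 of these 5 clusters and below 0 in 0. Pooled within clusters the ratio was 0.38. The difference between the 2 cell types was not tested, since each group has 1 library. In each cell type 1 anesthesia and 1 awake library stand behind the ratio.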

How the results depend on the processing

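No paired analysis was possible because each group has 1 library. Of the 28 measured members, 28 kept their sign relative to the median gene, with TMM factors, in cells of at most 10000 UMIs, with at most 5% mitochondrial UMIs, without the 8% highest doublet scores and as a mean over cells. All cells passing the filter and every deposited barcode each kept 27 signs, the within-cluster ratio 25, removal of the GC and length trend 25, and the within-cluster ratios at resolutions 0.3 and 1.0 kept 22 and 24. Values changed more than signs. Pooled within clusters, 17 of the 28 members left their counting interval, 13 at resolution 0.3, and 12 besides Fdft1 at resolution 1.0. With the trend removed 8 members left it, with TMM factors 7, and in the other settings 0. Fdft1 turned to 0.041 at resolution 1.0, and the cause was not tested. TMM factors moved the median of all measured genes to -0.10. The count of members at least 1.5-fold lower was 2 within clusters at resolution 0.3, where Ebp, Mvd and Fdft1 fell short, and 1 with a minimum of 1000 UMIs, which leaves fewer genes. At 2-fold, 1 member was higher and 1 lower. In the isoprenoid branch 2 genes were higher relative to the median gene and 2 after removal of the GC and length trend. Of the genes for Srebf cleavage 0 were higher within clusters and 0 with the trend removed, of the endolysosomal genes 1 and 1, and of the oxysterol and ester genes 0 within clusters. The log2 ratio of summed synthesis was -0.39 with TMM factors, -0.26 within clusters at resolution 0.3 and -0.11 without Ebp. That of summed efflux was 0.63 with TMM factors, 0.67 within clusters, 0.75 and 0.65 at resolutions 0.3 and 1.0, and 0.49 once the GC and length trend was taken out. In cells of at most 10000 UMIs, summed synthesis was -0.86 in border-associated macrophage-like and 0.33 in choroid plexus or ependymal-like cells, and summed efflux was 0.29 in endothelial-like cells. The causes of these shifts were not tested. Counting error is widest for members under 500 UMIs, such as Lss and Tm7sf2, and no setting stands in for a second library.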
